A study of Mus musculus with 10 samples.

Results

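The levels of 9 interferon response genes, *Isg15*, *Ifit1*, *Ifit2*, *Ifit3*, *Irf7*, *Irf9*, *Stat2*, *Bst2* and *Rtp4*, were compared in gastrocnemius muscle (GAS) of obese mice treated with or without an oligonucleotide, as a check for an innate immune response to it. The genes were taken as a list of symbols, and all 9 were found among the 21160 genes of the count table. Every mouse was a wild-type male C57BL/6J on the high fat diet D12492i (diet-induced obesity, DIO), aged 30 weeks at the end. The ASO group (5 mice) received RES-010, an antisense oligonucleotide with locked nucleic acid (LNA) bases against miR-22, subcutaneously at 10 mg/kg once a week for 14 weeks, and the CTRL group (5 mice) received saline over the same time. No lean mice and no other oligonucleotide were among the groups, so an effect of inhibiting miR-22 and an effect of any oligonucleotide of this chemistry cannot be told apart. The RNA came from whole muscle, and in such bulk samples fewer cells of a type and less RNA per cell cannot be told apart either.

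Cells that sense foreign nucleic acid secrete type I interferons, which bind the receptor pair IFNAR1 and IFNAR2 on neighbouring cells. The receptor-bound kinases JAK1 and TYK2 then phosphorylate transcription factors such as STAT2, which joins IRF9 in a complex that binds interferon-stimulated response elements (ISREs) in the promoters of antiviral genes. Single-stranded and double-stranded nucleic acids, some therapeutic oligonucleotides among them, can set off this response through endosomal and cytosolic sensors.

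Sequences of the targeted miRNA and of the ISRE-like stretches in the promoters are shown first, because the ASO is directed at the one and the complex of STAT2 and IRF9 binds the other. The mature miRNA that the ASO targets is printed from RefSeq with its seed, bases 2 to 8, in capitals.

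mmu-miR-22-3p: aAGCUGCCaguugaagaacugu

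The DNA match of this seed, GGCAGCT, was found in the counted segments of 673 of 7618 tested genes (8.83%) and of 0 of the 8 members that were tested. At that share, 0 of 8 does not set the members apart. These segments cover only the end of a transcript, so the letters may still stand elsewhere in the genes. In the promoters, the core of an ISRE was searched as 2 copies of GAAA separated by any 2 bases, on both strands, in the RefSeq windows from 250 bases before to 50 bases after each start. The motif was present in 5 of 8 members with a promoter entry (62.5%), compared with 194 of 6098 tested genes with one (3.18%) and 1131 of 32851 promoter windows in all (3.44%). The 5 genes with a match were *Isg15*, *Ifit1*, *Ifit3*, *Stat2* and *Bst2*. The matches are given below on the strand of the gene, with the matched letters in capitals, and a match on the other strand reads as 2 copies of TTTC.

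*Isg15*, chr4:156285328-156285357, minus strand: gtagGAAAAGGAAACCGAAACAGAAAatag

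*Ifit1*, chr19:34618185-34618213, plus strand: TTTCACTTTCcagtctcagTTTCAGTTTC

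*Ifit3*, chr19:34560769-34560786, plus strand: taagTTTCACTTTCctct

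*Ifit3*, chr19:34560803-34560820, plus strand: tctgTTTCAGTTTCtact

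*Stat2*, chr10:128106141-128106158, plus strand: ctggTTTCAGTTTCcttt

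*Bst2*, chr8:71990227-71990250, minus strand: ccagGAAAATGAAACTGAAAggct

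Coordinates are on GRCm39. In *Isg15* the capitals hold 3 overlapping matches at positions -78 to -57 from the start, in *Ifit1* they hold 2 matches at -104 to -76, and in *Bst2* 2 overlapping matches at -130 to -115. In *Ifit3* the 2 matches lay at -156 to -147 and -122 to -113, and in *Stat2* the match lay at -222 to -213. The windows of *Irf7*, *Irf9* and *Ifit2* did not contain these letters, and *Rtp4* had no entry. Of the 3 members that rose with the ASO (below), *Stat2* and *Ifit1* had a match and *Irf7* did not. Among the tested members that were not called, *Ifit3* and *Bst2* had a match and *Ifit2* and *Irf9* did not.

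The table holds read pair counts on the last 500 bp, or less, of annotated 3′UTRs, summed here per gene. Library totals were 1606909 to 2116720 counts in CTRL and 2239186 to 2632560 in the ASO group, and a count of 3, used as the floor, corresponded to 1.25 to 1.77 CPM (counts scaled to a common library size, with the trimmed mean of M values, TMM). The miRNA and its host transcript are not in the table, so the labels could not be checked against the target. Of 15 skeletal muscle markers, 4 were at 0 in every library, the defining genes *Mb* and *Mylpf* among them, while *Acta1* (skeletal actin) stood at 39775 ± 9046 CPM in CTRL and 59125 ± 5611 CPM in the ASO group (mean ± SD, n = 5, as for all values below). No read pair was assigned to segments with the same coordinates as another segment, and genes at 0 may therefore still be transcribed. Read pairs fell nearer to the ends of transcripts in the ASO libraries. Across 1679 genes with 2 separated segments, the median log2 ratio of distal to upstream counts was 1.06 to 1.58 in the ASO libraries and -0.58 to 0.35 in CTRL, without overlap.

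Among the 9 members, *Stat2*, *Ifit1* and *Irf7* were higher with the ASO, none was lower, and the other 5 tested members had intervals that included 0. *Stat2* and *Ifit1* were higher in every treated library than in every control library, whereas for *Irf7* 1 control library reached the treated range. *Isg15* was too low to test. With edgeR's quasi-likelihood test at a Benjamini-Hochberg adjusted p of 0.05 over 7819 genes, 3 of 8 tested members were called higher, compared with 916 of all tested genes (11.7%), and 0 of 8 lower, compared with 1365 (17.5%). DESeq2 and limma-voom also called 3 members higher and 0 lower. All 8 fitted log2 fold changes were above 0, with a median of 0.22 compared with -0.03 over all tested genes, of which 3772 were above 0. This sign did not hold for every scaling, because with total counts in place of TMM, which moved the median of all genes by -0.18, *Ifit3* (-0.043) and *Rtp4* (-0.083) were below 0.

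**Figure D1:**
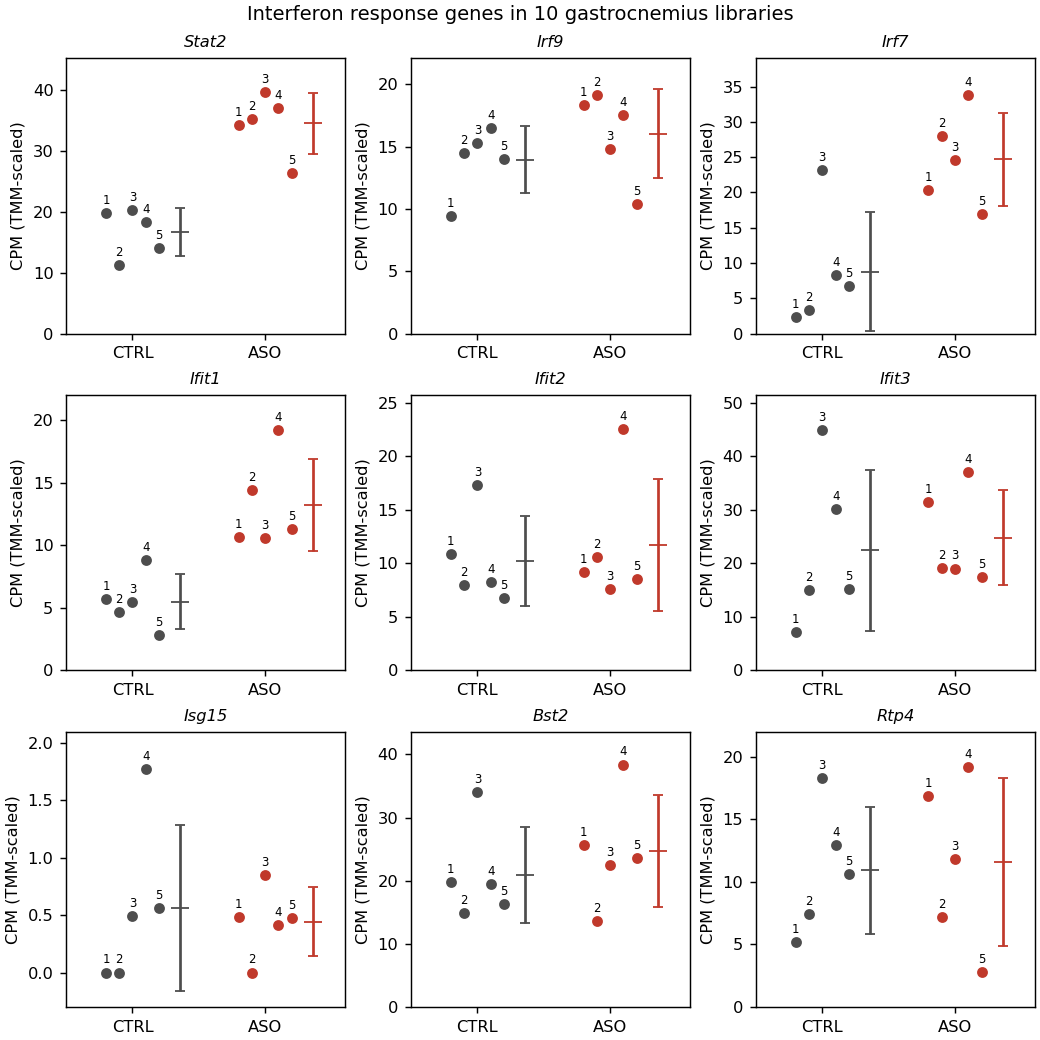
Levels of the 9 interferon response genes in 10 gastrocnemius libraries. Each panel gives the CPM of 1 gene on its own axis, which starts at 0 except for *Isg15*, each point is 1 library of the CTRL or ASO group with its replicate number, and horizontal lines with error bars are means ± SD (n = 5). The ASO points of *Stat2* (26.4 to 39.7) and *Ifit1* (10.6 to 19.2) lie above all CTRL points, the *Irf7* points overlap through 1 CTRL library at 23.2, and *Isg15* stays at or below 1.77 in every library.

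The 3 members that encode transcription factors of the response differed from each other. STAT2 carries the receptor's signal to the nucleus, and its gene was counted on 1 segment at chr10:128128219-128128718, plus strand, the annotated end of the transcript. In CTRL replicates 1 to 5, *Stat2* stood at 19.8, 11.2, 20.3, 18.3 and 14.0 CPM. In ASO replicates 1 to 5 it stood at 34.3, 35.3, 39.7, 37.1 and 26.4 CPM. The lowest treated library was thus above the highest control library, a pattern that 624 of the tested genes (7.98%) shared. The mean rose from 16.7 ± 3.94 to 34.6 ± 5.02 CPM, a log2 fold change of 1.05 (SE 0.20, adjusted p = 0.0024 by edgeR). An exact two-sided permutation test over the 252 labellings of the libraries gave p = 0.0079, the smallest value that 5 against 5 allows.

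IRF7 is the factor that drives the interferon-alpha genes and is itself induced by interferon. Its reads fell on 1 segment, chr7:140843118-140843617, minus strand, which lies 499 bp upstream of the most distal annotated segment, and the other 3 segments hold 0 counts. *Irf7* stood at 2.36, 3.26, 23.2, 8.26 and 6.74 CPM in CTRL replicates 1 to 5. The ASO replicates 1 to 5 had 20.3, 28.0, 24.5, 33.8 and 17.0 CPM. A single control library, CTRL replicate 3, lay inside the treated range, and the other 4 were below all treated libraries. The mean rose from 8.77 ± 8.43 to 24.7 ± 6.58 CPM (log2 fold change 1.50, 95% interval 0.45 to 2.54, edgeR adjusted p = 0.034, exact permutation p = 0.024). This call was the least stable of the 3. It was lost with total counts as the scaling (adjusted p = 0.083) and when any 1 of 7 libraries was left out, with adjusted p between 0.0011 and 0.075 over the 10 such fits. Without CTRL replicate 3 the log2 fold change was 2.29.

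IRF9 is the DNA-binding part of the complex with STAT2. It was counted at chr14:55846294-55846784, plus strand, 703 bp upstream of 3 more distal segments that have identical coordinates and no counts. The 5 CTRL libraries had 9.43, 14.5, 15.3, 16.5 and 14.0 CPM of *Irf9*, and the 5 ASO libraries had 18.3, 19.1, 14.8, 17.5 and 10.4 CPM, in the order of the replicates. The ranges overlapped over most of their length, and the means of 14.0 ± 2.70 and 16.0 ± 3.56 CPM did not differ beyond the spread (log2 fold change 0.20, 95% interval -0.29 to 0.70, edgeR adjusted p = 0.53).

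The effectors were mixed as well. The IFIT proteins bind viral RNA and block its translation, with IFIT1 recognising caps that lack methylation and IFIT2 and IFIT3 forming complexes with it. Their genes lie near each other on chromosome 19, and each was counted on 1 segment at its annotated end. The segments were chr19:34626910-34627409 for *Ifit1*, chr19:34553320-34553819 for *Ifit2* and chr19:34565668-34566131 for *Ifit3*, all on the plus strand. For *Ifit1*, CTRL replicates 1 to 5 had 5.66, 4.66, 5.43, 8.85 and 2.81 CPM. The ASO libraries had 10.6, 14.4, 10.6, 19.2 and 11.3 CPM. All 5 treated libraries were above all 5 controls, on counts of 5 to 46 per library. The mean was 5.48 ± 2.19 CPM in CTRL and 13.2 ± 3.70 CPM with the ASO (log2 fold change 1.27, SE 0.31, edgeR adjusted p = 0.0089, exact permutation p = 0.0079).

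The other 2 *Ifit* members did not show this separation. *Ifit2* had 10.8, 7.93, 17.3, 8.26 and 6.74 CPM in CTRL replicates 1 to 5 and 9.17, 10.6, 7.61, 22.5 and 8.49 CPM in ASO replicates 1 to 5. Its single highest library was ASO replicate 4, followed by CTRL replicate 3, and the remaining 8 lay together, so that the fitted change of 0.19 (95% interval -0.59 to 0.97, edgeR adjusted p = 0.72) turned to -0.17 without ASO replicate 4. *Ifit3* had 7.07, 14.9, 45.0, 30.1 and 15.2 CPM in CTRL and 31.4, 19.1, 19.0, 37.1 and 17.4 CPM with the ASO. Its highest library was a control, CTRL replicate 3, and the fitted change of 0.15 (95% interval -0.75 to 1.05, edgeR adjusted p = 0.81) was within the spread. *Ifit3b*, a near-identical copy whose reads can be split with those of *Ifit3*, had 16.2 ± 7.41 CPM in CTRL and 16.6 ± 3.41 CPM in the ASO group, a log2 fold change of 0.04, so both genes are uncertain to that extent.

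BST2 (tetherin) holds budding virus particles at the cell surface. It was counted at chr8:71986899-71987333, minus strand. The CTRL libraries had 19.8, 14.9, 34.1, 19.5 and 16.3 CPM and the ASO libraries 25.6, 13.6, 22.4, 38.4 and 23.6 CPM in the order of the replicates. The lowest library was a treated one, and the change of 0.24 (95% interval -0.39 to 0.87, edgeR adjusted p = 0.56) was within the spread. RTP4, an interferon-induced protein that helps receptors of the G protein-coupled family reach the cell surface, was counted almost wholly (99.58%) at chr16:23431965-23432464, plus strand, 508 bp upstream of the most distal annotated segment. *Rtp4* ranged from 5.19 to 18.3 CPM in CTRL and from 2.83 to 19.2 CPM with the ASO, so that the treated range covered the control range. Its log2 fold change was 0.10 (95% interval -0.90 to 1.09, edgeR adjusted p = 0.89).

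ISG15 is a ubiquitin-like protein that is coupled to other proteins after interferon. Its only segment is the 129 bp stretch at chr4:156283912-156284040, minus strand. It held 5 counts of 9267015 in CTRL and 5 of 12112450 in the ASO group, with at most 3 in any library. Both groups were at the floor and no fold is given. With so few counts, a difference in *Isg15* was not detectable.

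Per kilobase of the segment with most counts, the levels of the members could be put in order. In CTRL the order was *Ifit3* (48.4 ± 32.5 CPM per kb), *Bst2* (48.1 ± 17.6), *Stat2* (33.4 ± 7.89), *Irf9* (28.4 ± 5.50), *Rtp4* (21.8 ± 10.2), *Ifit2* (20.4 ± 8.46), *Irf7* (17.5 ± 16.9), *Ifit1* (11.0 ± 4.38) and *Isg15* (4.38 ± 5.61). Neighbours in this order differed by less than the larger of their SDs, except *Ifit1* and *Isg15*. In the ASO group *Stat2* (69.1 ± 10.0 CPM per kb) stood first, before *Bst2* (56.8 ± 20.5), *Ifit3* (53.5 ± 19.1) and *Irf7* (49.5 ± 13.2). Then came *Irf9* (32.7 ± 7.25), *Ifit1* (26.5 ± 7.39), *Ifit2* (23.4 ± 12.3), *Rtp4* (23.0 ± 13.3) and *Isg15* (3.44 ± 2.33). Here neighbours differed by more than the larger of their SDs between *Irf7* and *Irf9* and between *Rtp4* and *Isg15*, and by less elsewhere.

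Within each group the members tended to be high in the same library. ASO replicate 4 was the highest treated library for 6 of 8 tested members, and CTRL replicate 3 was the highest control library for 6 of 8. ASO replicate 5 was the lowest treated library for 5 members and CTRL replicate 1 the lowest control for 4. Averaged over the members as z-scores (each gene's log2(CPM + 1) centred on its mean over 10 libraries and divided by its SD), CTRL replicate 3 had 0.625, inside the range of the ASO libraries (-0.361 to 1.309), and the other controls lay between -0.972 and -0.021. Without ASO replicate 4 and CTRL replicate 3 together, a fit chosen after the data were seen, the same 3 members were called, with log2 fold changes of 1.12 for *Stat2*, 1.12 for *Ifit1* and 2.18 for *Irf7* (edgeR adjusted p = 0.0018 for *Irf7*).

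**Figure D2:**
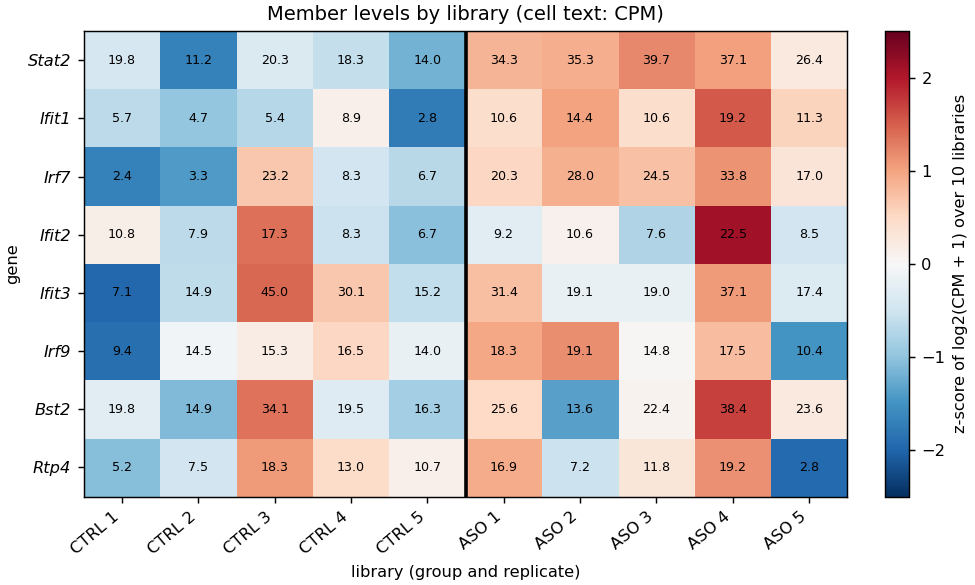
Levels of the 8 tested members in each library as z-scores of log2(CPM + 1), with genes as rows, libraries as columns and colour for SDs above (red) or below (blue) the gene's mean over 10 libraries. CTRL replicate 3 and ASO replicate 4 are the highest of their group for 6 of 8 genes each, and *Stat2* and *Ifit1* change colour between the groups.

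The 2 libraries with the highest members also stood apart in markers of other cell types. The summed CPM of 16 macrophage markers was 1973 in CTRL replicate 3 against 314 to 751 in the other controls, and 667 in ASO replicate 4 against 88.6 to 501 in the other treated libraries. The lowest value of all, 88.6, was in ASO replicate 5. CTRL replicate 3 further had the highest fibro-adipogenic sum (1844 CPM) and adipocyte sum (25222 CPM) and the lowest skeletal muscle sum (45824 CPM) of all libraries, and ASO replicate 4 had the lowest skeletal muscle sum of its group (93110 CPM). The part of these cells in the levels of the members was not tested. Between the groups the macrophage sum had a median of 679 CPM in CTRL and 430 CPM with the ASO, with overlapping ranges, and the defining markers *Adgre1*, *Cd163* and *Aif1* were at 0 in all libraries.

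The 5 tested genes outside the list whose levels followed the mean z-score of the members most closely, after each group was centred on its own mean, were *Nid1* (r = 0.987), *P2ry6* (0.978), *Tnfrsf1a* (0.966), *Rnf145* (0.961) and *Cybb* (0.957), as Pearson's r of log2(CPM + 1) over 10 libraries. These r values are the highest of all tested genes. All genes of a library share its cell makeup and depth, both of which differed between libraries. CTRL replicate 3 was the highest control library for all 5 and ASO replicate 4 the highest treated library for all 5. *Nid1* encodes a basement membrane protein, *Tnfrsf1a* a receptor of tumour necrosis factor and *Cybb* the oxidase subunit of phagocytes. Of the 5, *Nid1* was lower with the ASO (log2 fold change -1.30, edgeR adjusted p = 0.018) and the others did not pass the test.

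Upstream of the members, the receptor genes *Ifnar1* and *Ifngr2* and the factor gene *Irf1* were lower with the ASO. The interferon genes themselves were at or near 0, since of 21 symbols 11 were in the table, 10 of them at 0 in every library and *Ifnab* with 1 count in 1 library. Of 24 receptor and signalling genes, 13 were tested, 1 rose and 3 fell (median -0.27 on the log2 scale), counts that do not set the list apart from the 11.7% higher and 17.5% lower among all tested genes. *Ifnar1*, the first chain of the type I receptor, fell from 23.7 ± 9.40 to 11.4 ± 2.70 CPM (log2 fold change -1.06, SE 0.28, edgeR adjusted p = 0.014), and all treated libraries (7.61 to 14.2 CPM) lay below all controls (14.5 to 39.5 CPM). How many of all genes separated downward in this way was not counted, here or for the genes below. *Ifnar2*, the other chain, had 13.9 ± 6.76 CPM in CTRL and 13.4 ± 5.02 CPM with the ASO, without a detectable difference (-0.05, 95% interval -0.84 to 0.74). *Ifngr2*, a chain of the interferon-gamma receptor, fell from 71.6 ± 23.2 to 15.5 ± 7.23 CPM (-2.20, SE 0.37, edgeR adjusted p = 0.0012).

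*Irf1*, an interferon-induced factor, fell (-1.22, SE 0.34, edgeR adjusted p = 0.016), with 7.55 to 16.3 CPM in CTRL and 2.12 to 6.76 CPM with the ASO. *Jak1*, the kinase bound to IFNAR2, rose slightly (0.44, SE 0.16, edgeR adjusted p = 0.0495), a call that was lost under 13 of 21 alternatives. *Tyk2* (at most 4 counts) and *Irf3* (at most 1 count) were too low to test. *Usp18*, an interferon-induced brake that removes ISG15 and blocks the receptor, had 12.1 ± 4.19 CPM in CTRL and 14.1 ± 1.93 CPM in the ASO group (0.23, 95% interval -0.31 to 0.77, edgeR adjusted p = 0.51).

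**Figure D3:**
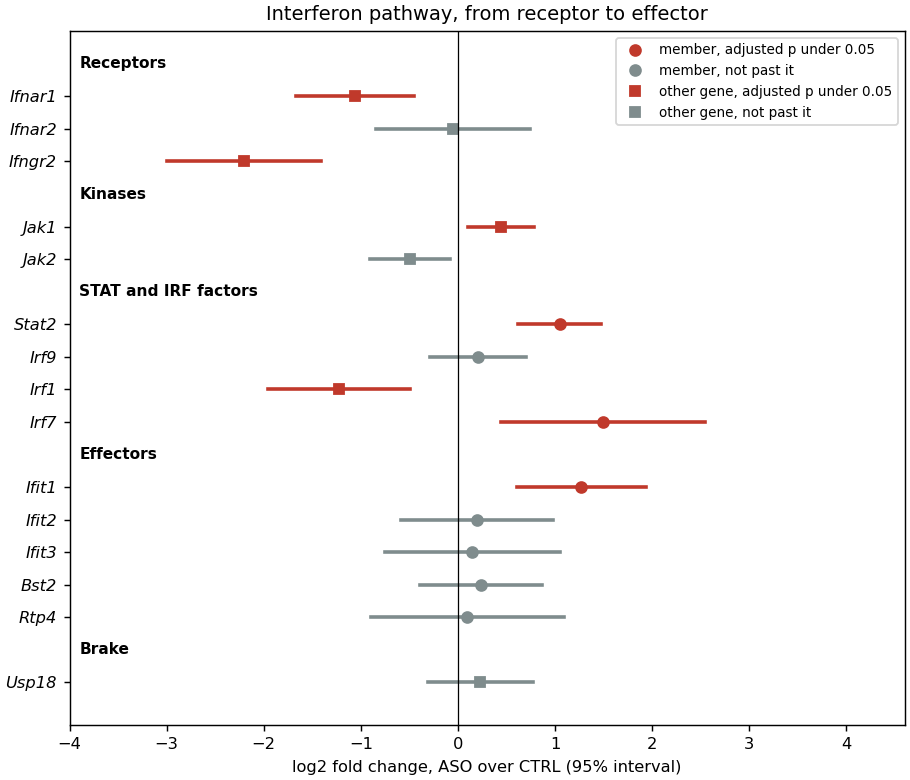
Log2 fold changes (ASO over CTRL, x axis) with 95% intervals for tested genes of the interferon pathway, from the receptors of type I interferon (*Ifnar1*, *Ifnar2*) and of interferon-gamma (*Ifngr2*) down, with circles for the listed genes (members), squares for other pathway genes and red for an adjusted p under 0.05. *Stat2*, *Irf7*, *Ifit1* and *Jak1* lie right of 0, whereas *Ifnar1*, *Ifngr2* and *Irf1* lie left of it.

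**Figure D4:**
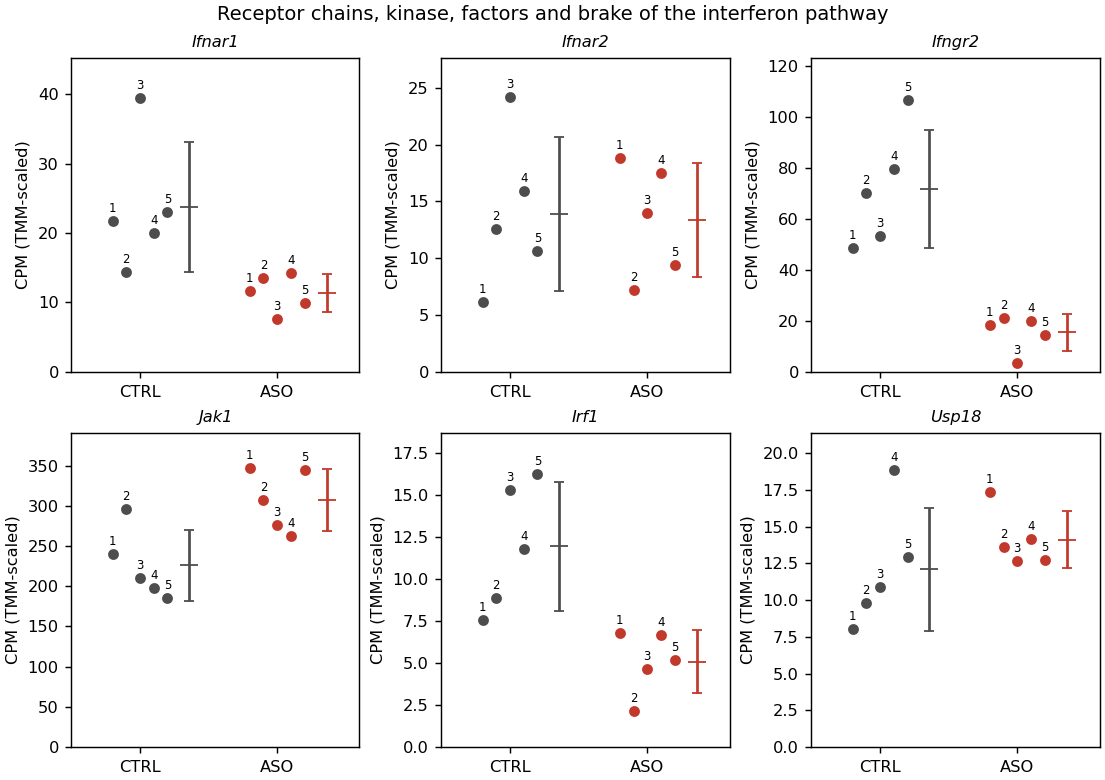
Levels of signalling genes around the members in each library, in CPM on an axis from 0, with points for libraries, numbered by replicate, and horizontal lines with error bars for means ± SD (n = 5). *Ifnar1*, *Ifngr2* and *Irf1* are lower in every ASO library than in every CTRL library, whereas *Ifnar2*, *Jak1* and *Usp18* overlap between the groups. The share of all tested genes with such a downward separation was not counted.

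These directions went together with where on the transcript the reads were counted. For the 7 pathway genes called higher, the 3 members included, the segment with most counts lay 0 to 499 bp from the most distal annotated one (median 0). For the 8 called lower it lay 534 to 15769 bp upstream (median 2673), with 775 bp for *Ifnar1*, 4289 bp for *Irf1* and 4974 bp for *Ifngr2*. Over all tested genes, 791 of 5432 with the main segment within 500 bp of the end were higher (14.6%) and 487 lower (8.97%), compared with 125 of 2387 higher (5.24%) and 878 lower (36.8%) where it lay further upstream. As given above, the libraries of both groups also separated in how far their reads lay toward the ends. The part of this shift in the fold changes was not tested. When only the most distal counted segment of each gene was used, *Ifnar1* and *Ifngr2* were not tested. *Irf1* had a log2 fold change of -1.47 (edgeR adjusted p = 0.013). In that fit the counts of *Irf1*, *Stat2*, *Ifit1* and *Irf7*, each counted on 1 segment, were unchanged. The fit therefore cannot check these genes for the shift in read position. Under its scaling *Stat2* and *Ifit1* were still called, with log2 fold changes of 0.81 and 1.05, and *Irf7* was not (1.24, adjusted p = 0.11).

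Other interferon-stimulated genes did not move as a group. Of 79 in the table, 35 were tested, 2 rose and 3 fell, and the median log2 fold change was 0.09. The shares over all tested genes were 11.7% higher and 17.5% lower. *Ogfr*, an opioid growth factor receptor, rose from 35.4 ± 1.59 to 58.1 ± 6.99 CPM (0.71, edgeR adjusted p = 0.0018), and *Ifi35*, an interferon-induced leucine zipper protein, rose from 44.0 ± 9.58 to 68.0 ± 5.32 CPM (0.63, edgeR adjusted p = 0.011, or 0.058 with total counts as the scaling). *Pml*, the core of nuclear bodies, fell (-1.50, edgeR adjusted p = 0.012, or 0.0502 without CTRL replicate 3 and ASO replicate 4), as did *Shisa5* (-1.30, adjusted p = 0.043) and *Parp9* (-1.38, adjusted p = 0.046), of which the last 2 lost the call without CTRL replicate 3 (-0.90 and -0.99). A further 71 genes of the pathway lists had counts but were below the filter on low counts. Without the filter 2170 of all 14150 genes passed, those with higher counts included. The share among genes below the filter alone was not computed. Of the 71 genes 1 passed. This was *Ifi44*, an interferon-induced gene named here after its values were seen. It had 0.933 to 2.47 CPM in CTRL and 4.67 to 12.9 CPM with the ASO, without overlap, on counts of 2 to 31 (log2 fold change 2.23, adjusted p = 0.0025 by edgeR without the filter, 0.00030 by DESeq2). Its reads fell on 1 segment at the annotated end.

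The remaining lists gave few calls. Their counts do not set them apart from the 11.7% higher and 17.5% lower among all tested genes. Of 10 tested nucleic acid sensors and adaptors, 0 rose and 1 fell, *Irak1* (-0.91, edgeR adjusted p = 0.0033), a kinase below the Toll-like receptors, with a median of -0.26, and *Tlr7* and *Nlrp3* were at 0. Of 6 tested interferon-gamma genes, 0 rose and 1 fell, the GTPase gene *Iigp1* (-0.99, edgeR adjusted p = 0.0094), with a median of -0.33. Of 10 tested NF-κB and cytokine genes, 1 rose, *Nfkb2* (0.98, edgeR adjusted p = 0.0037), which encodes the precursor of an NF-κB subunit, 0 fell, and the median was 0.16.

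**Figure D5:**
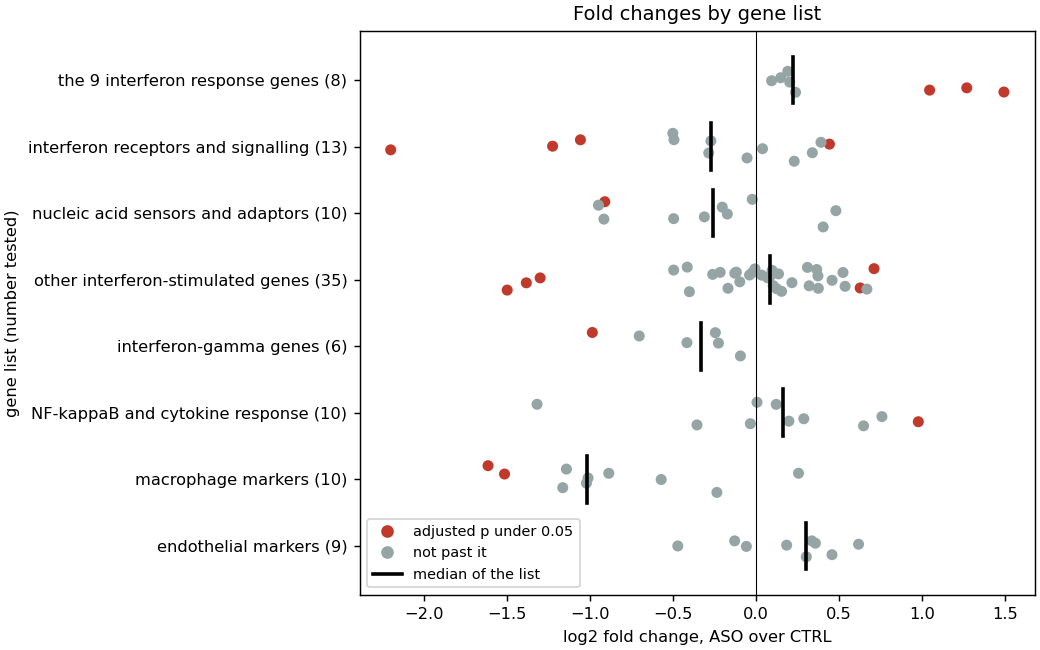
Log2 fold changes (ASO over CTRL, x axis) of the tested genes in the listed groups, 1 point for each gene, red for an adjusted p under 0.05 and a black bar for the median. The 8 tested interferon response genes have a median of 0.22, 3 of them stand above 1, and the macrophage markers have a median of -1.02.

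Markers of other cells in the muscle were compared in the same way, beside shares of 11.7% higher and 17.5% lower among all tested genes. Of 10 tested macrophage markers, 0 rose and 2 fell, *Mrc1* (-1.51, edgeR adjusted p = 0.036) and *C1qc* (-1.61, adjusted p = 0.046), and both calls were lost without CTRL replicate 3. The 3 most abundant were *Lyz2*, *C1qc* and *C1qa*, with 339 ± 292, 104 ± 81.0 and 86.7 ± 73.6 CPM in CTRL. The plasmacytoid dendritic cell, a main source of interferon that carries BST2 in mice, was covered by a list with lymphocyte markers, of which 2 of 17 were tested and neither passed. In that list *Tcf4* and *Bst2* led, followed by *Siglech*, which defines these cells in mice. *Siglech* was below the filter on low counts and stood at 1.41 to 6.49 CPM in CTRL and 0 to 1.25 CPM in the ASO group, lower in every treated library than in every control, on counts of 0 to 11. It was called lower without the filter (edgeR adjusted p = 0.015) and by DESeq2 (adjusted p = 0.0036). So were *Dpp4* of the fibro-adipogenic list (-2.14, edgeR adjusted p = 0.015) and *Itgam* of the macrophage list (-1.88, edgeR adjusted p = 0.031). These were 3 of 25 markers with counts under the filter, named after their values were seen. Without the filter, 1383 of all 14150 genes were called lower, those with higher counts included. The share among genes below the filter alone was not computed. The summed level of the list with *Siglech* was 82.5 to 110 CPM in CTRL and 60.3 to 113 CPM with the ASO. Of 9 endothelial markers, led by *Cdh5*, *Esam* and *Flt1*, 0 passed (median 0.30, 324 to 553 CPM in CTRL and 309 to 683 CPM with the ASO). Of 5 fibro-adipogenic markers, led by *Dpt*, *Lum* and *Col1a2*, 0 rose and 1 fell, *Lum* (-1.72, edgeR adjusted p = 0.0013, median -0.99). None of 8 adipocyte markers, led by *Car3*, *Fabp4* and *Adipoq*, passed (median -1.06), nor did any of 4 blood markers, led by *Hbb-bs*, *Hba-a2* and *Hba-a1* (median 0.17). Of 7 tested skeletal muscle markers, 4 rose and 0 fell, with a median of 1.08, and the summed level was 45824 to 87510 CPM in CTRL and 93110 to 149084 CPM in the ASO group, without overlap. *Actn3* (fast fiber actinin), *Ttn* (titin), *Atp2a1* (calcium pump of fast fibers) and *Ckm* (creatine kinase) passed. All counts of *Ttn* lay on 1 segment, 209964 bp upstream of the most distal annotated one. The call of *Ckm* was lost with the most distal counted segment only (-0.011, edgeR adjusted p = 0.98). The part of the difference in muscle markers in the CPM of the members, which are relative to all counts, was not tested.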

How the data were processed

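GAS RNA of 5 ASO and 5 CTRL mice was sequenced as stranded mRNA libraries. After trimming (fastp), the authors mapped reads by STAR to GRCm39 and ran featureCounts on read pairs with Gencode M25, with no strand option among the stated parameters, and kept the last 500 bp of 3′UTRs. The deposited values are raw counts per transcript segment. Here 52361 of 52423 segments were matched to GENCODE M39 and summed per gene, and the other 62 (0.0197% of counts) were kept as features of their own. Another 4 per-sample columns matched no label and were not used. Totals of 1606909 to 2632560 counts limit precision, and the floor of 3 counts covers counting error only.

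Genes passing edgeR's filter on low counts were tested with edgeR 4.0.16 (quasi-likelihood, TMM, no covariate) in R 4.3.3, with Benjamini-Hochberg adjustment over all of them. DESeq2 1.42.0, limma-voom (limma 3.58.1), other scalings, filters, segments and depths, a replicate block and leaving out each library were alternatives. Single genes were compared by exact permutation of log2(CPM + 1), with a pseudocount of 1. The fits were tested on simulated data. Replicates are separate mice by the study's methods.

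The members and the gene lists were chosen with earlier results of these data known. Named are the 9 members, 6 pathway genes (*Ifnar1*, *Ifnar2*, *Jak1*, *Tyk2*, *Irf3*, *Usp18*), up to 6 genes past the threshold per other list by adjusted p, the 3 most abundant markers per cell type, and the 5 genes most like the members. A further pathway gene is not reported here and was left out of the lists. Sequences are from RefSeq, and the promoter windows of its GRCm38.p6 table were located by exact match on GRCm39. Chromosome 18 was left out of the seed search.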

Additional observations from a re-analysis of the deposited data

Results flagged for a closer look

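Values were checked in 58 groups of 5 libraries for a single library far from the rest (gap to the nearest value over the group's range above 0.71, on either the CPM or the log2(CPM + 1) scale). Chance gives this in about 1 of 20 groups on each scale. On the CPM scale only, 3 of the interferon response genes had such a library. *Ifit2* stood at 22.5 CPM in ASO replicate 4, with the other treated libraries between 7.61 and 10.6 CPM (gap over range 0.799, and 0.702 on the log2 scale). *Irf7* stood at 23.2 CPM in CTRL replicate 3, with the other controls between 2.36 and 8.26 CPM (0.717, and 0.487 on the log2 scale). *Bst2* stood at 34.1 CPM in the same library, with the other controls between 14.9 and 19.8 CPM (0.745, and 0.661 on the log2 scale). On the log2 scale only, *Ifngr2* at 3.38 CPM in ASO replicate 3 lay below the others, which were between 14.6 and 21.2 CPM (0.782, and 0.629 on the CPM scale). *Mrc1* at 7.54 CPM in ASO replicate 5 lay below the others, between 19.8 and 28.0 CPM (0.729 on the log2 scale).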

How the results depend on the processing

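The calls of *Stat2* and *Ifit1* held under every alternative in which they were tested, with log2 fold changes of 0.81 to 1.14 and 1.05 to 1.49. With the most distal counted segment only, 992 of 6081 tested genes were called (388 higher, 604 lower) instead of 2281 of 7819 (916 higher, 1365 lower). Of other pathway list genes, 3 of 55 tested were called there instead of 12 of 72. A minimum of 10 counts in every library left 5 members, of which 1 was called instead of 3. Without 1 library at a time, 1825 to 2373 genes, 2 to 3 members and 9 to 16 other list genes were called. Total counts gave 528 higher and 1821 lower genes, and upper quartile scaling 1261 and 1207. A replicate block left 1838 genes, 3 members and 9 other list genes called, and *Ifnar1* was not (adjusted p = 0.054). The labels share only numbers, since deviations of same-numbered libraries correlated between -0.427 and 0.165 and 0 of 5 treated libraries correlated best with their own number.

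Uncalled members changed sign with the most distal counted segment only (*Ifit2* -0.040, *Ifit3* -0.097, *Irf9* -0.026, *Bst2* -0.0037, also *Ckm* -0.011), with total counts (*Ifit3* -0.043, *Rtp4* -0.083) and with limma-voom (*Rtp4* -0.022). Leaving out 1 library moved *Ifit2* between -0.17 and 0.46, *Ifit3* between -0.080 and 0.58 and *Rtp4* between -0.15 and 0.37, with values below 0 without ASO replicate 4 for all 3, without CTRL replicate 1 for *Ifit3* and *Rtp4*, and without ASO replicate 1 or CTRL replicate 2 for *Rtp4*. *Ifnar2* was above 0 with upper quartile (0.035) and limma-voom (5.5e-05), without ASO replicate 2, ASO replicate 5 or CTRL replicate 3 (range -0.24 to 0.25 over the libraries left out), and without CTRL replicate 3 and ASO replicate 4 together (0.15). In the fit with the most distal counted segment only, the counts of *Ifit2*, *Ifit3*, *Irf9* and *Bst2*, each on 1 segment, were unchanged. The cause of these changes of sign was not tested. Calls of *Shisa5*, *Parp9*, *Mrc1* and *C1qc* were lost under 9 of 21, 15 of 19, 10 of 22 and 12 of 22 alternatives. The call of *Ifi35* was lost with total counts (adjusted p = 0.058) and that of *Pml* without CTRL replicate 3 and ASO replicate 4 together (adjusted p = 0.0502). *Isg15*, *Tyk2* and *Irf3* had at most 4 counts in a library, and the part of depth and of how reads were assigned to segments in this was not tested.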
